A study of Mus musculus with 7 samples.

Results

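The promoters of protein-coding genes were compared for 5-formylcytosine (5fC) between TDG knockdown (TDG KD) and siRNA control in J1 cells, a mouse ES cell line of strain 129S4/SvJae. A promoter was the window of 1 kb on either side of the transcription start site (TSS) at the 5′ end of a GENCODE M1 gene record on mm9. Of 22380 protein-coding genes, 21418 were autosomal, and 21171 had at least 50% of the window covered by deposited domains in all 4 libraries. Chromosome 8, with 1078 of these genes, was kept apart, and the 20093 promoters on the other autosomes were compared. The members are 4 of the 7 samples of the series.

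Both conditions had the same wild-type background and the same culture without feeder cells, and both were transfected in repeated rounds with siRNA, a pool against Tdg (siRNA label TDG-KD) or a non-targeting siRNA (label non-targeting (control)). The control libraries were bham479 and ear001 and the TDG KD libraries bham480 and ear003, so that each name prefix, BHAM or EAR, held 1 library of each condition. A single genomic input from wild-type cells served all libraries. Knockdown with siRNA leaves some transcript, and Tdg transcript is not measured by this assay. The labels do not say what the prefix stands for. Where p-values are given, they measure only the spread between these libraries.

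5fC arises when TET enzymes oxidise the methyl group of 5-methylcytosine through 5-hydroxymethylcytosine. TDG is the glycosylase that removes 5fC and 5-carboxylcytosine from DNA, after which base excision repair restores an unmodified cytosine. CpG-rich promoters are mostly unmethylated in ES cells, and they are the class at which TET1 is known to bind.

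Each library was called by the authors into domains that are enriched, background or unconfident against the input. The score of a domain is, per bin of 100 bp, its pulldown reads less its input reads. Here the level of a promoter is the score averaged over its window, less the mean of the library, per 100 kb and per M (mega) mapped reads, and is called the excess. A value of 10 is thus 10 reads per 100 kb and per M reads above the average of that library, and it is a relative level, not an amount of 5fC. All bases of a domain share 1 score, so genes within a domain share a value. In what follows a pair of values is given with the BHAM library first, bham479 before ear001 for control and bham480 before ear003 for TDG KD.

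The libraries differed in ways that touch every result below. Depth was 28.7 to 29.2 M reads in bham479, ear001 and ear003 and 20.4 M in bham480, whose scores summed to -7.07 M reads, whereas the other 3 sums lay above 0. In bham480 unconfident domains covered 504.9 Mb, against 2.21 to 6.30 Mb in the other 3, and 6862 of the 20093 promoters (34.2%) were unconfident. The domain that held the TSS had a median width of 83900 bp and 186100 bp in control and 126200 bp and 51900 bp in TDG KD. Their part in the differences between conditions was not tested.

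The sequences upstream of 6 start sites show the kinds of promoter involved. They are the 250 bases before the TSS, read from the mm9 sequence 5′ to 3′ on the strand of the gene, with the cytosine and guanine of every CpG, the main site of methylation and its oxidation, in capitals. *Pcdh10* (ENSMUSG00000049100.8), *Htr1b* (ENSMUSG00000049511.4), *Wt1* (ENSMUSG00000016458.6) and *Mbd4* (ENSMUSG00000030322.6) were enriched in both TDG KD libraries and background in both controls. *Tubgcp5* (ENSMUSG00000033790.9) and *Ccdc80* (ENSMUSG00000022665.8) showed the reverse.
Pcdh10: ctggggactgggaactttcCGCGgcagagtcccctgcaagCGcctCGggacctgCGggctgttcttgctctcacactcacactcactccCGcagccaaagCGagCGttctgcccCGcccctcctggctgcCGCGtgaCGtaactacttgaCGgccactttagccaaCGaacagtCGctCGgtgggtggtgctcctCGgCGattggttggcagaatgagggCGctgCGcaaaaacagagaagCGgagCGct
Htr1b: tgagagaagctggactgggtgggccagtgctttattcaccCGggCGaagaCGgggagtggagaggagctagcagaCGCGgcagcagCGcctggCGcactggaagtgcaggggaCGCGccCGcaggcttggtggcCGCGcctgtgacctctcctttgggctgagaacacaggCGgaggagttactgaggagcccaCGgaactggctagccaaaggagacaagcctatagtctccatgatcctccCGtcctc
Wt1: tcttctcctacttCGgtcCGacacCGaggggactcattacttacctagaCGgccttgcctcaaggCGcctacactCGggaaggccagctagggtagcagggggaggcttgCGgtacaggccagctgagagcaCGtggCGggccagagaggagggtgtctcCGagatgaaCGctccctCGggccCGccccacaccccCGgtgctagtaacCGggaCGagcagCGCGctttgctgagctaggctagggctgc
Mbd4: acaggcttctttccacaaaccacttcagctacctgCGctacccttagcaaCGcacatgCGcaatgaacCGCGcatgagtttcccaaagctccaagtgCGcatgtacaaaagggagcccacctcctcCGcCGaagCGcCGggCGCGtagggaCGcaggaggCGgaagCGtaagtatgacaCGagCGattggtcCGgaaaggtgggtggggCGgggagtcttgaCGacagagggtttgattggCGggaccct
Tubgcp5: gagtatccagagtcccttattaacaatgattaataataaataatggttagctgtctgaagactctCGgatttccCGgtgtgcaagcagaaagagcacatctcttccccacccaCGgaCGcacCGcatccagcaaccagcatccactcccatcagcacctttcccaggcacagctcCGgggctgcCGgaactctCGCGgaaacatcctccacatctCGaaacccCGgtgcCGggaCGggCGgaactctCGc
Ccdc80: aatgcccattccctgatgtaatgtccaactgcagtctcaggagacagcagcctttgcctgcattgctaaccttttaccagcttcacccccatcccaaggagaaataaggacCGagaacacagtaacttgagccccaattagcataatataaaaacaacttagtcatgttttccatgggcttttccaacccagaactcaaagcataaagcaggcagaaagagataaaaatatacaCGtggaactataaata
The stretches lie at chr3:45182070-45182319 (plus strand, 22 CpGs), chr9:81526223-81526472 (minus strand, 15 CpGs), chr2:104966436-104966685 (plus strand, 18 CpGs), chr6:115803390-115803639 (minus strand, 21 CpGs), chr7:63049268-63049517 (plus strand, 15 CpGs) and chr16:45093265-45093514 (plus strand, 2 CpGs), all immediately upstream of the annotated gene. At least 1 CpG (the letters CG, the same on both strands) was present in this stretch at 92.4% of all 20093 promoters, where the median count was 9.

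The first comparison asks whether more promoters were called enriched in 5fC after TDG KD. Enriched promoters made up 43.2% and 39.0% of the 20093 in control and 13.9% and 54.1% in TDG KD. The 2 TDG KD libraries therefore lay on either side of both controls. On average 41.1% ± 2.95 (SD, n = 2) of promoters were enriched in control and 34.0% ± 28.4 (SD, n = 2) in TDG KD, with p = 1 in a two-sided exact permutation test, for which 0.33 is the smallest p that 2 against 2 libraries allow. Within BHAM the share was 29.3 percentage points lower in TDG KD (kd minus control -29.3) and within EAR it was 15.0 points higher. Over the promoters that were unconfident in none of the 4 libraries the difference in means was 4.14 points, against -7.12 points over all, so the direction depended on how the unconfident calls of bham480 were treated.

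The level of promoters was compared in the same way. The mean excess was 5.03 and 2.14 in control and 2.34 and 11.4 in TDG KD. The difference between TDG KD and control was -2.68 within BHAM and 9.23 within EAR. The means were 3.58 ± 2.04 in control and 6.86 ± 6.38 in TDG KD (SD, n = 2 each, p = 0.67 in the exact permutation test). As that p cannot fall below 0.33, the test cannot decide whether the means differ. Only ear003 stood above both controls.

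Promoters were divided by their CpG content, because CpG-rich promoters are mostly unmethylated and CpG-poor ones are often methylated. High-CpG promoters (HCPs) hold a 500 bp window with at least 55% GC and a ratio of observed to expected CpGs of 0.6 or more, low-CpG promoters (LCPs) have no window with a ratio of 0.4 or more, and the rest are intermediate (ICPs). HCPs numbered 11354, ICPs 3428 and LCPs 5311. The mean excess of HCPs was 6.47 and 2.70 in control and 3.28 and 16.0 in TDG KD. That of LCPs was 2.42 and 1.13 in control and 0.833 and 3.87 in TDG KD. HCPs were above LCPs in each of the 4 libraries, by 4.05 and 1.57 in the controls and by 2.44 and 12.1 in TDG KD. The gap was 2.81 ± 1.75 in control and 7.29 ± 6.85 in TDG KD (SD, n = 2 each, p = 0.67 in the exact permutation test). That p cannot fall below 0.33 here, so the test cannot decide whether the gap differs. The gap in bham480 lay between those of the 2 controls. ICPs lay between, from 1.60 in bham480 to 7.65 in ear003.

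**Figure D1:**
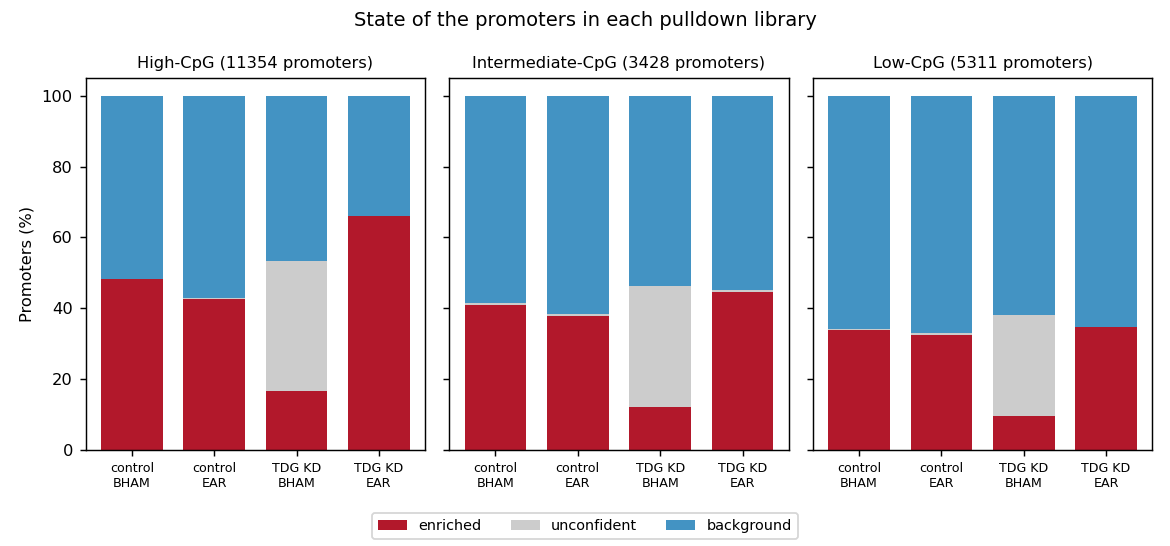
Percentage of promoters in the enriched, unconfident and background state (y axis) in each of the 4 libraries, for high-, intermediate- and low-CpG promoters. In TDG KD EAR (ear003) 66.1% of HCPs were enriched against 48.2% and 42.6% in the controls, while in TDG KD BHAM (bham480) 16.5% were enriched and 36.8% unconfident.

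For single genes, the TDG KD libraries were set against the controls by limma across all 20093 promoters. The test called 5 promoters at an adjusted p of 0.05, which is 0.0249% of those tested, and all 5 were lower in TDG KD. At an unadjusted p of 0.05 there were 640. The 5 were *2610036A22Rik*, *Gm13152*, *Gm16503*, *Zfp936* and *Ighv1-73*, which are named here after their values were seen. The lowest was *2610036A22Rik*, at -35.3 and -24.9 in control and -78.5 and -58.2 in TDG KD (limma adjusted p = 0.016). *Gm13152* and *Gm16503* share 1 domain in each library, at -25.6 and -17.0 in the controls and -67.2 and -43.5 in TDG KD (limma adjusted p = 0.038). All 5 lay below the library mean in every one of the 4 libraries and each was unconfident in bham480. No promoter was called when the fit was limited to the 13219 that were unconfident in no library (300 at an unadjusted p of 0.05), after quantile normalization (786) or without the trend of variance on level (393), whereas leaving out bham480 gave 2868 calls, 2577 higher and 291 lower. That fit sets the single library ear003 against both controls and assumes that it varies as they do. With a term for the name prefix 47 were called, 46 of them lower, among them *Prl2c3* and *Eif4enif1*. No gene named below passed the main fit without that term, so their values are given as they stand in each library.

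Agreement within the 2 prefixes was examined next, since each prefix gives a difference that shares no pulldown library with the other. The input is common to both. Within BHAM 37.7% of promoters were higher in TDG KD, with a median difference of -2.09, and within EAR 61.9% were higher, with a median of 9.50. In both prefixes 3251 promoters (16.2%) were higher in TDG KD and 3342 (16.6%) were lower, and the remaining 13500 (67.2%) differed in opposite directions. Both TDG KD libraries lay above both controls at 2274 promoters (11.3%) and below both at 2612 (13.0%). Across promoters the differences in BHAM and in EAR had a Pearson r of -0.19 over 20093 promoters, which is a description only because neighbours share domains and all libraries share the input. After quantile normalization 52.9% were higher within BHAM and 39.1% within EAR, so the split between higher and lower depends on the scaling, and 1994 of the 3251 and 2261 of the 3342 kept their direction in both prefixes. Among HCPs 20.5% were higher in both prefixes and 14.9% lower, and among LCPs 8.40% were higher and 17.6% lower.

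**Figure D2:**
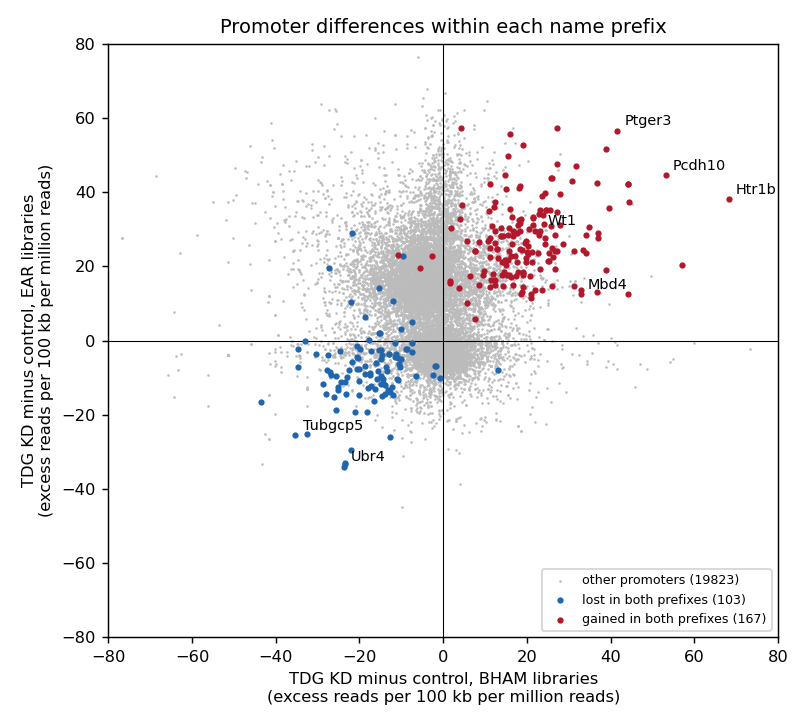
Difference in promoter excess, TDG KD minus control, within the BHAM libraries (x axis) and within the EAR libraries (y axis), in reads per 100 kb per M reads, with 1 point per promoter. Promoters that gained the enriched state in both prefixes are red and those that lost it are blue, 7 other promoters lie beyond the limit of 80 on an axis, and most grey points fall in the quadrants where the prefixes disagree.

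A stricter form of agreement used the state of the promoter. Enriched in both TDG KD libraries and background in both controls were 167 promoters, 0.831% of the 20093, and the reverse held for 103, or 0.513%. They are called gained and lost below, which describes the calls and is not a test. Within BHAM 379 promoters (1.89% of all) went from background to enriched and within EAR 3853 (19.2%). The 167 are 44.1% of the BHAM list, beside the 19.2% of all promoters gained within EAR. They are 4.33% of the EAR list, beside the 1.89% of all gained within BHAM. Lost within BHAM were 1391 (6.92% of all promoters) and within EAR 853 (4.25%). The 103 are 7.40% of the BHAM list, beside the 4.25% of all lost within EAR. They are 12.1% of the EAR list, beside the 6.92% of all lost within BHAM. The shares of all promoters include those whose state in control did not allow such a change. In bham479 8682 promoters were enriched and 11378 background, and in ear001 7844 and 12174. Shares of only the promoters able to change were not computed, so these values do not measure agreement between the prefixes. Another 3658 promoters were enriched in both controls and in ear003 but unconfident in bham480. Against both controls, ear003 alone gave 2260 gained and 369 lost promoters, and bham480 alone gave 253 and 463.

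The gained promoters were mostly CpG-rich. HCPs made up 132 of the 167 (79.0%), against 56.5% of all promoters, ICPs 23 and LCPs 12. This is not particular to the promoters that agree. Of the 3853 gained within EAR 3028 were HCPs, and of the 379 gained within BHAM 277 were. Among all enriched promoters, HCPs were 7500 of 10865 in ear003 and 1879 of 2799 in bham480. In terms of each class, 1.16% of HCPs, 0.671% of ICPs and 0.226% of LCPs were gained. For the lost promoters these shares were 0.476%, 0.671% and 0.490%, and HCPs made up 54 of the 103 (52.4%). The median density was 4.70 CpGs per 100 bp in the gained windows, 2.75 in the lost windows and 3.10 in all. In the 250 bases upstream, of which 6 examples are printed above, the median was 14 CpGs for gained, 7 for lost and 9 for all promoters. The 167 fell into 147 groups of genes more than 100 kb apart, and the 103 into 94.

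The wild-type libraries were not used to choose these promoters, although they were read against the same input. Of the 167 gained promoters, 121 (72.5%) were enriched in wild-type library bham359_362 and 95 (56.9%) in bham470, against 52.3% and 47.7% of all promoters. Of the 103 lost promoters, 48 (46.6%) and 58 (56.3%) were enriched. Among HCPs alone the shares were 77.3% and 61.4% of the gained and 61.1% and 63.0% of the lost promoters, beside 65.8% and 55.4% of all HCPs. In bham470 the gained HCPs were therefore not above the lost ones. The wild-type cells were not transfected and were grown on feeder cells.

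Around the gained start sites the median width of the enriched domains was 11600 bp in bham480 and 6200 bp in ear003. Over all enriched domains of these libraries it was 6300 bp and 5900 bp, counted per domain, whereas a wide domain is more likely to hold a TSS. Over all promoters the domain at the TSS, in any state, had medians of 126200 bp and 51900 bp. The background domains that held the gained start sites had medians of 47800 bp in bham479 and 137900 bp in ear001. At 5 kb upstream of the TSS 41.3% of these promoters still lay in an enriched domain in bham480 and 35.3% in ear003, and 15.6% did in bham479 and 11.4% in ear001. The lost promoters had their widest enriched domains in ear001, with a median of 60200 bp, and 25500 bp in bham479. Over all enriched domains, counted per domain, the medians were 24550 bp in ear001 and 9400 bp in bham479. In the window of 1 kb 164 of the 167 gained promoters were higher in TDG KD in both prefixes, with 5 kb on either side 155 were, and with 25 kb 76 were. Of the 103 lost promoters 90, 73 and 34 were lower in both prefixes with these windows. Of all 20093 promoters 3251, 3379 and 2461 were higher in both prefixes with these windows, and 3342, 3247 and 3328 were lower. The counts with 1 kb largely follow from how the 2 sets were chosen, and the wider windows include the same 1 kb. The part of domain width in these values was not tested.

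**Figure D3:**
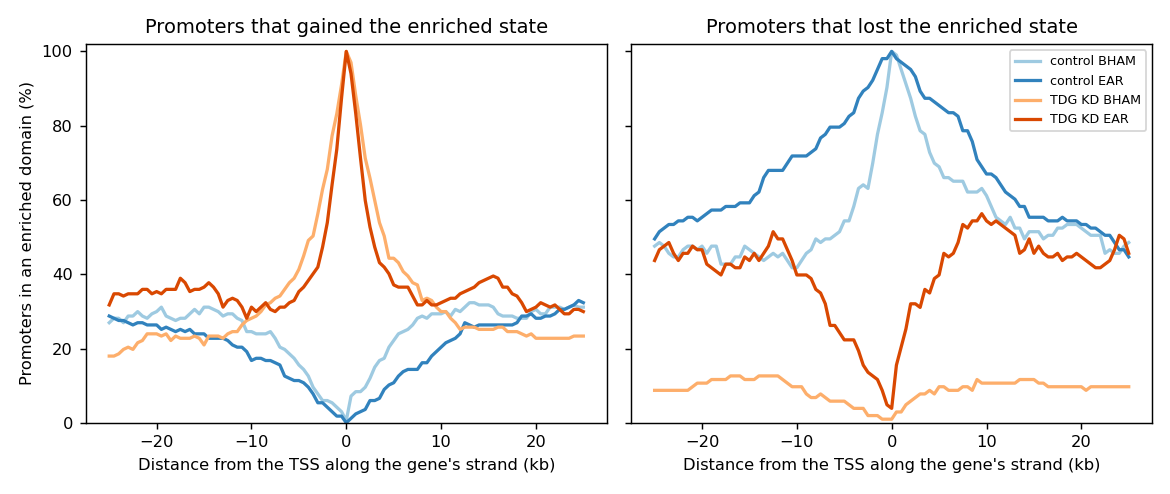
Percentage of the 167 gained promoters (left) and the 103 lost promoters (right) that lie in an enriched domain (y axis) by distance from the TSS along the strand of the gene in kb (x axis), 1 line per library. The TDG KD lines on the left fall to 41.3% in bham480 and 35.3% in ear003 at 5 kb upstream, and the values at the TSS itself follow from how the promoters were chosen.

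Genes were ranked by an agreement score, the smaller of the 2 differences within the prefixes, which ranks a gene by its weaker gain. The highest belonged to *Pcdh10*, a protocadherin of the nervous system. Its excess was -8.37 and -4.68 in control and 44.8 and 39.9 in TDG KD. Both controls were below their library means and both TDG KD libraries far above theirs, and the TSS lay in an enriched domain of 5800 bp in bham480 and 6200 bp in ear003, within background domains of 7120200 bp in bham479 and 9253300 bp in ear001. *Htr1b*, which encodes a serotonin receptor, stood at -6.65 and -3.67 in control and 61.6 and 34.5 in TDG KD. *Ptger3*, a prostaglandin E receptor, stood at -2.70 and -3.18 in the controls and at 38.9 and 53.4 in TDG KD. The small GTPase gene *Arf6*, which acts in membrane traffic, had -4.79 and -3.94 in the controls against 39.3 and 38.3. In all of these the groups did not overlap. They have the 4 highest scores once clone names and neighbours within 100 kb are passed over, were chosen for this pattern, and each had a limma adjusted p of 0.98.

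The remaining genes among the 12 highest scores were *Rtn1*, *Olfr1344*, *Zfp367*, *Prdm9*, *Lhfpl3*, *Nkx2-9*, *Reln* and *Elovl4*. Their excess ranged from -7.21 to 1.45 in the controls and from 25.3 to 44.5 in TDG KD. *Reln* encodes a secreted glycoprotein that guides migrating neurons, *Nkx2-9* a homeobox factor and *Elovl4* an elongase of very long fatty acids. *Prdm9*, the histone methyltransferase that places meiotic recombination hotspots, had -4.19 and -2.84 in the controls and 35.4 and 32.9 in TDG KD. *Olfr1344* was background in bham480 by most of its window despite an excess of 44.3, and the other 11 were enriched in both TDG KD libraries. In wild-type cells 11 of these 12 promoters were enriched in bham359_362 and 7 in bham470, against 52.3% and 47.7% of all promoters. All of the 12 but *Olfr1344* are HCPs, and of all HCPs 65.8% and 55.4% were enriched in these libraries.

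At the other end stood *Tubgcp5*, a subunit of the gamma-tubulin complex. It had 29.6 and 18.8 in control and -5.69 and -6.66 in TDG KD, with narrow enriched domains of 3200 and 4900 bp in the controls. *Ccdc80*, a secreted matrix protein with an LCP, was at 19.09 and 24.60 in the controls and at -2.92 and -4.83 in TDG KD. The promoter of *Ubr4*, a ubiquitin ligase, had 20.7 and 10.3 against -2.97 and -23.8. In ear003 its TSS lay in a domain of 1600 bp, and with a window of 5 kb the EAR difference turned from -34.0 to 13.1. The 2 neighbouring lost genes start at chr4:138908502 and chr4:138908491, beside chr4:138908524 for *Ubr4*. They have nearly the same window and are no separate measurement. *Nudt3*, a nucleotide and inositol phosphate hydrolase, had 30.9 and 19.7 against 5.23 and 1.17. *Phf5a*, a splicing factor subunit, had 16.3 and 9.92 against -4.86 and -9.38. The controls lay above TDG KD in all 5, again by choice.

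The other 7 of the lowest scores included promoters with doubtful calls. *Prl2c3*, of the prolactin family, was unconfident in all 4 libraries and below the mean in all of them, from -13.2 in ear001 to -66.9 in bham480. *Sp100* and *H2-T24* were unconfident in bham480, and with a window of 5 kb the EAR difference of *H2-T24* turned to 4.34. *Eif4enif1*, which carries a translation factor into the nucleus, was background in all 4 libraries, at -4.85 and 12.6 in control and -61.1 and -5.07 in TDG KD. *Grinl1a*, *Lsm12* and *Speer4a* completed the set. Among the lost promoters with the next lowest scores were *Cml2* and *Nup214*, at 10.6 and 10.2 in the controls against -4.17 and -4.81 for *Cml2*, and 21.1 and 18.1 against -6.99 and 3.61 for *Nup214*.

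**Figure D4:**
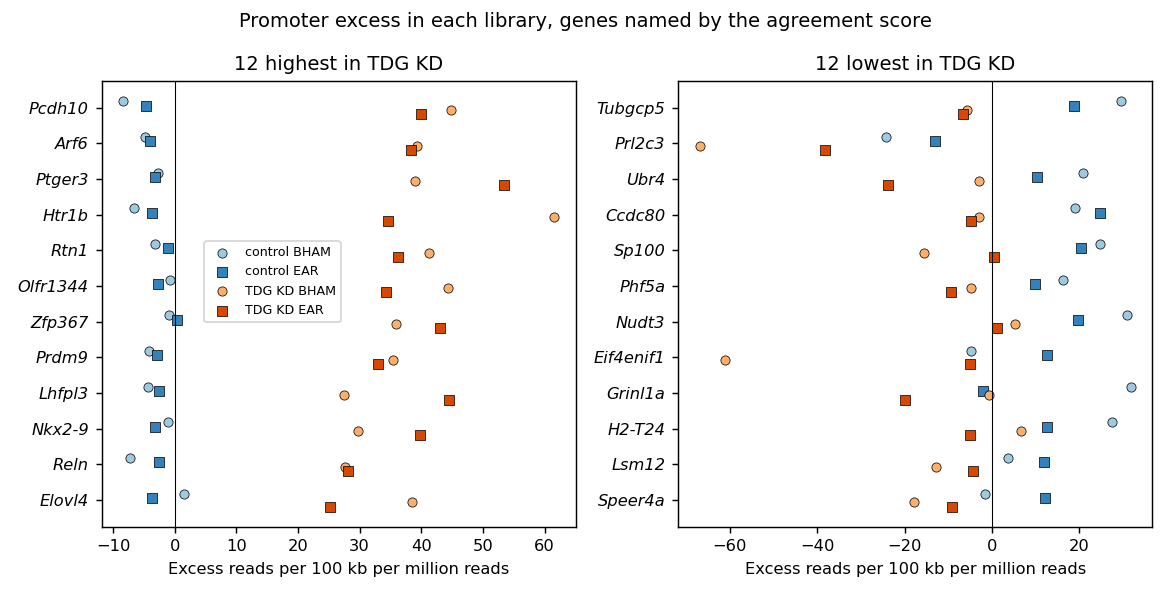
Excess of the 12 promoters with the highest (left) and the 12 with the lowest agreement score (right), in reads per 100 kb per M reads (x axis), 1 point per library. On the left the controls lie between -8.37 and 1.45 and TDG KD between 25.3 and 61.6, a separation that follows from the choice of genes. On the right the values of TDG KD lie between -66.9 and 6.70.

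Genes of the methyl- and oxidised-cytosine pathway were described as a list, in the order of their roles. Of 28 promoters tested, 5 were higher in TDG KD in both prefixes (17.9%, against 16.2% of all) and 3 were lower (10.7%, against 16.6%). HCPs made up 24 of the 28, and among all HCPs 20.5% were higher and 14.9% lower. Among the writers, the promoter of *Dnmt1*, the maintenance methyltransferase, had 8.35 and 7.84 in the controls and 10.2 and 24.1 in TDG KD, and *Dnmt3b*, a de novo methyltransferase, had 10.5 and 4.53 against 0.189 and 21.6. Among the oxidases, *Tet1* was background in all 4 libraries, at -8.11, -5.05, -10.4 and -11.0 in the order above. *Tet2* was background as well, at -5.28, -2.39, -5.65 and -7.58. *Tet3* was enriched in both controls, at 14.7 and 6.03, unconfident in bham480 at 7.43 and enriched in ear003 at 20.8. The promoter of *Tdg* itself was background in all 4, at -9.02 and -5.09 in the controls and -7.06 and -11.5 in TDG KD, which overlap.

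Among the glycosylases and repair genes, *Mbd4* was gained. MBD4 is a glycosylase that, like TDG, removes thymine from mismatches at CpG. Its promoter had -8.06 and -1.61 in control and 24.8 and 10.9 in TDG KD, with no overlap between the groups, and it was enriched in both wild-type libraries (limma adjusted p = 0.98, difference 22.7 with an SE of 8.23). In bham480 its TSS lay in an enriched domain of 165700 bp, all bases of which share 1 score. With a window of 5 kb the EAR difference of *Mbd4* was -0.596, so the gain within EAR rests on the narrow window. It was the 1 gained promoter of the list, and none was lost. *Smug1*, a uracil glycosylase, had 13.1 and 8.56 in the controls, -5.32 in bham480 and 24.2 in ear003, so that the TDG KD libraries lay on either side. *Idh2*, which makes the 2-oxoglutarate that TET enzymes use, had 0.875 and 7.02 against 7.95 and 16.6. *Gadd45a* was lower in both prefixes, by 4.30 and 0.38, and background or unconfident in all 4.

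The *Hox* clusters, arrays of homeobox genes that pattern the body axis, are wide CpG-rich regions with silent genes in ES cells. Of 40 promoters 23 (57.5%) were higher in TDG KD in both prefixes, against 16.2% of all promoters, and 3 (7.50%) were lower, against 16.6%. Of the 40, 29 were HCPs, and among all HCPs 20.5% were higher and 14.9% lower. In bham480, where 13.9% of all promoters were enriched, 57.5% of the *Hox* promoters were, against 60.0% in bham479, 50.0% in ear001 and 77.5% in ear003. *Hox* genes share domains: the 23 carried 16 different sets of values, and for 11 of them the difference within BHAM was under 1. From *Hoxb5* to *Hoxb9*, 5 promoters had the same values in all 4 libraries, 14.0, 12.5, 14.1 and 21.8. After quantile normalization 9 of the 40 (22.5%) were higher in both prefixes and 6 (15.0%) lower, against 18.6% and 26.6% of all promoters, so the count depends on the scaling. *Hoxa7* and *Hoxa9* had the highest scores, with 16.9 in bham480 and 27.4 in ear003 for both, against -7.05 and 10.5 in the controls for *Hoxa7*. *Hoxd4* and *Hoxc11* were lower in both prefixes, although with a window of 5 kb the EAR difference of *Hoxc11* was 6.79. *Hoxa2*, *Hoxc13* and *Hoxd9*, named after their values were seen, were among the gained promoters.

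Of 65 promoters of lineage transcription factors, 16 (24.6%) were higher in both prefixes, against 16.2% of all promoters, and 3 (4.62%) were lower, against 16.6%. HCPs made up 58 of the 65, and among all HCPs 20.5% were higher and 14.9% lower. *Wt1*, a zinc finger factor of kidney and gonad, was gained, at 0.304 and 2.07 in the controls and 23.4 and 31.7 in TDG KD. *Gsc*, a homeobox factor of the organizer, was gained as well. *Foxa2*, a factor of endoderm, had 15.9 and 0.174 against 35.8 and 24.3, without overlap. *Pax3*, a factor of neural crest and muscle, was the 1 lost promoter, at 11.5 and 13.8 against 5.02 and 4.18. With a window of 5 kb its EAR difference turned from -9.64 to 1.49. *Runx1*, a factor of blood, had 11.9 and 4.71 against 7.54 and -9.70, and its groups overlapped. After quantile normalization 19 (29.2%) were higher and 16 (24.6%) lower in both prefixes, against 18.6% and 26.6% of all.

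Ligands and receptors of axon guidance had 10 of 65 promoters higher in both prefixes (15.4%, against 16.2% of all) and 0 lower (against 16.6%), with 0 gained and 0 lost. HCPs made up 61 of the 65, and among all HCPs 20.5% were higher and 14.9% lower. The receptor gene *Ephb6* had 16.9 and -1.74 in the controls and 32.0 and 37.2 in TDG KD, but its TSS lay in a background domain of 1000 bp in bham480, and with a window of 5 kb the BHAM difference turned from 15.1 to -5.14. The netrin gene *Ntn4* had -0.492 and 0.398 against 9.75 and 9.90. After quantile normalization 17 (26.2%) were higher and 11 (16.9%) lower, against 18.6% and 26.6% of all, so the 0 does not hold under that scaling.

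Pluripotency genes had 4 of 23 promoters higher in both prefixes (17.4%) and 2 lower (8.70%), against 16.2% and 16.6% of all. *Pou5f1*, which encodes the factor OCT4, had 6.47 and 11.3 in the controls and 11.0 and 27.8 in TDG KD, with overlap. *Lin28a*, an RNA-binding protein, had -1.07 and -1.38 against 13.1 and 2.59, without overlap. *Nanog* had 19.5 and 3.74 against -6.12 and 29.3, so that the prefixes disagreed by -25.6 and 25.6. *Fbxo15* and *Nr5a2* were lower in both prefixes and background in all 4 libraries, but within EAR by 2.80 and 0.045, and with a window of 5 kb these EAR differences were 7.50 and 9.20. In bham480 0 of the 23 were enriched and 13 were unconfident, where 13.9% of all promoters were enriched and 34.2% unconfident.

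Germline genes had 4 of 28 higher and 4 lower in both prefixes (14.3% each), near the 16.2% and 16.6% of all promoters, with *Piwil2*, a partner of piRNAs, at 5.91 and 2.54 in the controls and 12.6 and 21.2 in TDG KD. Imprinted genes had 5 of 37 higher (13.5%) and 7 lower (18.9%), also near those shares. But 25 of the 28 germline promoters and 28 of the 37 imprinted ones were HCPs, of which 20.5% were higher and 14.9% lower over all HCPs. *Magel2* in the Prader-Willi region was the imprinted promoter that was gained, at 7.03 and -3.70 against 25.35 and 21.02, and *Peg3* was lower in both prefixes at 7.85 and -0.424 against -0.659 and -5.60, although with a window of 5 kb its EAR difference was 2.62. Cytoplasmic ribosomal protein genes had 23 of 71 higher (32.4%, against 16.2% of all) and 12 lower (16.9%, against 16.6%). HCPs made up 68 of the 71, and among all HCPs 20.5% were higher and 14.9% lower. *Rpl27* led the list at -8.74 and 6.38 against 6.25 and 17.4, which overlap, and 1 promoter, *Rps16*, was lost. After quantile normalization 17 (23.9%) were higher and 11 (15.5%) lower, against 18.6% and 26.6% of all. Of the genes that the study used as examples, *Hic1* was enriched in all 4 libraries and *Csf2ra* in all but ear001, so the state does not set TDG KD apart. *Hic1*, a tumor suppressor and transcriptional repressor, had 19.3 and 10.6 in the controls and 14.7 and 37.6 in TDG KD, and *Csf2ra*, a cytokine receptor, had 18.5 and 0.231 against 24.3 and 44.8, although with a window of 5 kb its BHAM difference was -3.10.

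Olfactory receptor genes, which are silent in ES cells and have CpG-poor promoters, were mostly background in all 4 libraries. Of 1075 promoters 24 (2.23%) were higher in both prefixes and 139 (12.9%) lower, against 16.2% and 16.6% of all promoters. Among all LCPs these shares were 8.40% and 17.6%. Behind the 1075 stood 270 different sets of values, because neighbours share domains. Their median excess was -6.93 and -4.46 in control and -4.01 and -9.47 in TDG KD, so the median difference was 2.76 within BHAM and -5.63 within EAR. Between 1.12% and 6.14% of them were enriched in a library, against 13.9% to 54.1% of all promoters. After quantile normalization 185 (17.2%) were higher and 119 (11.1%) lower in both prefixes, against 18.6% and 26.6% of all, which turns the direction of the count. *Olfr1413* was gained, although with a window of 5 kb its EAR difference was -2.46, and *Olfr1513*, *Olfr544* and *Olfr1331*, named after their values were seen, were lost.

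**Figure D5:**
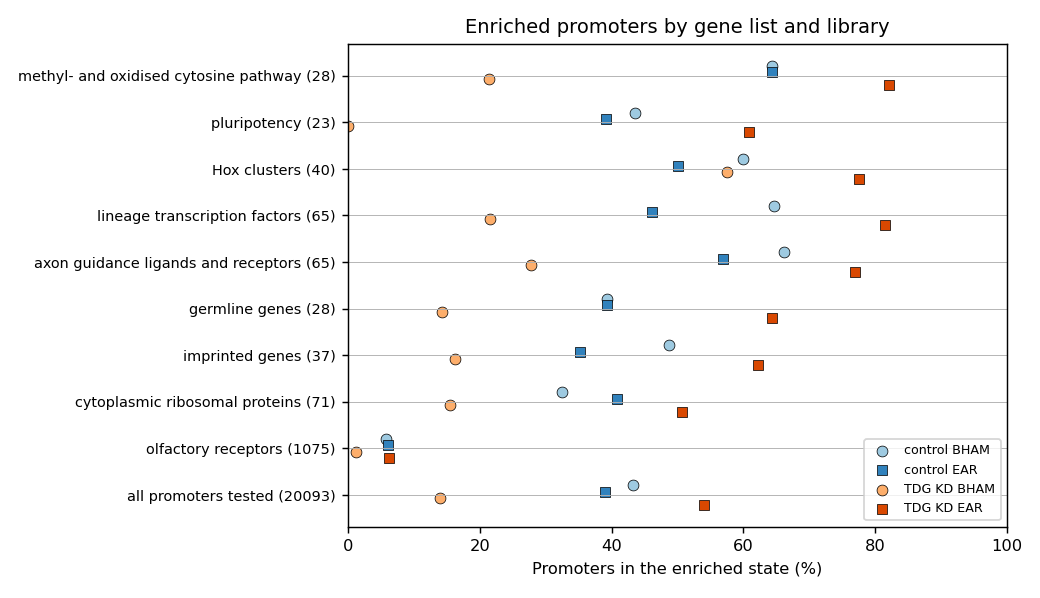
Percentage of promoters in the enriched state (x axis) for 9 gene lists and for all promoters tested, with the number of promoters in brackets, 1 point per library. TDG KD BHAM (bham480) lies below both controls in every list except the Hox clusters, where it is at 57.5%, and TDG KD EAR (ear003) lies above both controls in all of them.

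The assay reads DNA and does not check cell identity, so marker genes are given as promoter values only. Of 5 promoters of ES cell markers outside chromosome 8, 2 and 3 were enriched in control and 0 and 4 in TDG KD, and 2 were unconfident in bham480. Of 10 promoters of fibroblast markers, 3 and 3 were enriched in control and 1 and 5 in TDG KD. Over all promoters 43.2% and 39.0% were enriched in control and 13.9% and 54.1% in TDG KD, so in both lists too bham480 was the lowest library and ear003 the highest.

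Chromosome 8 was apart from the other autosomes in every siRNA library and also in wild-type cells, where 66.0% and 71.2% of its promoters were enriched in bham359_362 and bham470, against 52.3% and 47.7% of the others. Over whole domains its mean score stood above the library mean in all 4, and of its 1078 promoters 83.4% and 87.7% were enriched in control and 54.0% and 86.1% in TDG KD. Their mean excess exceeded that of the other promoters by 16.3 and 13.5 in the controls and by 12.8 and 18.6 in TDG KD. This gap was 14.9 ± 1.98 in control and 15.7 ± 4.11 in TDG KD (SD, n = 2 each; p = 1, exact permutation test). In both prefixes 96 promoters (8.91%) were higher in TDG KD and 82 (7.61%) lower, against 16.2% and 16.6% on the other autosomes. Gained were 2 and lost 12 of the 1078, against 0.831% and 0.513% on the other autosomes. *Cdh11*, a cadherin of mesenchyme, was gained at 0.0135 and 2.30 in the controls and 16.3 and 51.5 in TDG KD. *AY761185* was lost, at 15.5 and 15.4 against -5.86 and -6.63.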

How the data were processed

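The authors mapped 1 read per fragment to mm9 using BWA, listed as version 0.6.1 among the submitters' processing notes, retained reads with a mapping quality of at least 15, and ran rseg (version not given in the sources used here) on each library against 1 input in bins of 100 bp. The deposited score of a domain is its mean difference in reads per bin, not scaled for depth, and a second deposited score was not used. Depth per library was read from the study's supplement. Read counts per promoter were not used, so no counting interval is given.

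The score was averaged by length over each promoter, the library mean was subtracted, and the result was divided by reads in M (mega) and written per 100 kb. limma 3.58.1 (R 4.3.3) fitted the 4 libraries with a trend of variance on level, no prefix term and Benjamini-Hochberg adjustment over 20093 promoters. Other values came from Python 3.11.15, NumPy 2.4.6, pandas 2.3.3 and SciPy 1.17.1, and plots from Matplotlib 3.10.9. The computations were tested on simulated data. Group means used a two-sided exact permutation test. 247 autosomal genes were left out for low cover.

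Named genes were the 12 highest and 12 lowest agreement scores with 1 gene per 100 kb, up to 8 gained and 8 lost promoters, the 2 highest and 2 lowest members of each list, and 6 genes fixed by name. *Dnmt1*, *Dnmt3b*, *Smug1*, *Nanog*, *Gsc*, *Rps16* and *Hoxb5* to *Hoxb9* were named outside this rule, with the values known. They are not among the 73 named genes. Clone names were passed over. The score is the difference nearer to 0 when both prefixes agree in sign. Members and lists were chosen with earlier results of these data known. Alternatives were other windows, other start sites, other states, quantile normalization, no division by depth, a prefix block, promoters unconfident in none, and leaving out each library. The 2 libraries of each prefix carry no label of a shared batch, and the block was an alternative. Some gene promoters are not reported here.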

Additional observations from a re-analysis of the deposited data

Results flagged for a closer look

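The mean promoter excess differed between TDG KD and control in opposite directions in the 2 name prefixes, by -2.68 within BHAM (bham480 minus bham479) and by 9.23 within EAR (ear003 minus ear001), in reads per 100 kb per M reads. HCPs showed the same, with -3.19 within BHAM and 13.3 within EAR. With 1 library of each condition per prefix the difference between prefixes was not tested. In BHAM the TDG KD library had 20.4 M reads and 6862 unconfident promoters, and in EAR it had 28.7 M reads and 27 unconfident promoters. Groups of 2 libraries are too small for a search for samples far from the others.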

How the results depend on the processing

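None of the 11 alternatives kept the limma count within 1.5 times of 5. Quantile normalization turned the sign of 6 of the 12 list medians, from 4.53 to -1.10 for ES cell markers, 6.18 to -0.34 for the cytosine pathway, 3.97 to -1.10 for pluripotency, 4.71 to -2.25 for *Hox*, 3.93 to -0.51 for ribosomal proteins and -1.29 to 0.91 for olfactory receptors. A window of 5 kb turned the difference in at least 1 prefix at 15 of 73 named genes. The prefix block raised the limma calls from 5 to 47, 46 of them lower, among them *Prl2c3* and *Eif4enif1*. With the block and quantile normalization together, a combination chosen after seeing the data, 0 were called (629 at an unadjusted p of 0.05). Quantile normalization alone gave 0, no division by depth 44, the window of 5 kb 66, no trend 0 and promoters unconfident in none 0, and leaving out 1 library gave 55 to 2868. The share of enriched promoters differed by -7.12 points between TDG KD and control, by 4.14 points over promoters unconfident in none, and by -27.2 to 12.9 points when 1 library was left out (12.9 without bham480). The mean excess differed by 3.27, and by -1.24 to 7.79 without 1 library (-1.24 without ear003). For HCPs the range was -1.31 to 11.4, for ICPs -1.48 to 4.57 and for LCPs -0.942 to 2.10, with the negative values of HCPs and ICPs without ear003 and those of LCPs without ear003 or without ear001 (-0.0640). After quantile normalization the difference was -1.04 for ICPs and -1.02 for LCPs. Promoters higher in both prefixes numbered 1867 among those unconfident in none, and those lower in both numbered 5335 after quantile normalization. The cause of these shifts was not tested. The gained promoters numbered 253 to 2260 and the lost 369 to 463 when 1 TDG KD library was left out. By the state at the TSS base, also chosen after seeing the data, 171 were gained and 98 lost. Agreement in both prefixes was not run without a library because it needs all 4. A value is an average over a whole domain, so the width of the domains limits how local it is. Of the 4 libraries bham480 was the shallowest, at 20.4 M reads.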
